A study of Homo sapiens with 6 samples.

Results

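CUX1 and CUX2 are the 2 human genes of the CUX family, and they were followed here through 6 RNA-seq samples of NB4 cells with and without ARID1A. They are 2 of the 52992 genes whose transcripts could be summed, and both passed the filter on low counts that left 18514 genes for testing. The pair was chosen by the measured difference in CUX2 between ARID1A-deficient and control cells, so that difference is described below with its size and error. Calls made on it are listed only for completeness and are not read as a test. NB4 is an established acute promyelocytic leukemia (APL) cell line. Cells that stably carried Cas9 received a doxycycline-inducible guide RNA vector, and all 6 cultures were given 1 μg/ml doxycycline for 7 days and then kept in doxycycline-free medium before RNA was extracted. The 3 groups held 2 samples each: LacZ, the control with a guide against a bacterial gene (genotype WT), and sg1 and sg5, which carried separate guides against ARID1A and whose genotype is given as ARID1A-deficient. ARID1A binds DNA as part of SWI/SNF, a complex that remodels chromatin. The cells were sorted for both vectors as populations, so a sample can hold a mixture of edited alleles, and Cas9 and doxycycline were shared by controls and knockouts. No label says whether the samples of a group came from separate cultures, so the tests measure only the spread between these samples.

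CUX proteins are transcription factors with 3 cut repeats and a homeodomain, all of which bind DNA. CUX1, also known as CCAAT displacement protein, is made in most tissues and is known in myeloid cells as a repressor of genes that are switched on late in granulocyte maturation. Its locus has a second product: transcripts that share the 5′ exons but end in other 3′ exons encode CASP, a Golgi membrane protein without cut repeats or homeodomain. CUX2 is best known as a marker of upper-layer cortical neurons and is found in few blood cells, among them plasmacytoid dendritic cells.

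The 3 guide-defined groups were sequenced to between 46131178 and 54843745 estimated counts per sample. A principal component held 34.4% of the variance. It set sg1 replicate 1 (34.3) and sg5 replicate 2 (46.8) apart from the other 4 samples (-30.3 to -11.3). No label accounts for this split, and values without these libraries are given for some results only. ARID1A itself was measured at 155 and 191 CPM (counts scaled to 1000000 per library) with LacZ, 211 and 191 CPM with sg1 and 124 and 145 CPM with sg5. The ARID1A mRNA was thus not lower with sg1 than with LacZ, and its log2 fold change was 0.22 (SE 0.14) with sg1 and -0.36 (SE 0.14) with sg5, with edgeR adjusted p of 0.993 and 0.661. A guide that shifts the reading frame need not remove the mRNA, so the level does not check the labels.

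The start of the coding sequence shows how alike the paralogs are and which first exon a transcript uses. The first 27 coding bases of 4 transcripts, read from GENCODE 29 and printed with capitals where the base is that of CUX2-201, were as follows.
CUX2-201, first base at chr12 position 111034178: ATGGCCGCCAATGTGGGATCGATGTTT
CUX1-203 and CUX1-202, first base at chr7 position 101816031: ATGGCgGCCAATGTGGGATCGATGTTT
CUX1-201, first base at chr7 position 101817640: ATGttgtgCgtaGccGGAgCcAgGTTg
CUX2-202, first base at chr12 position 111099582: ATGtgtagCccTcacatgggagaacag
Across 27 bases, the upstream start of CUX1 matched CUX2-201 at 26 positions, with the single substitution C6G counted from the A of the start codon. The downstream start of CUX1 matched at 13 positions and the internal start of CUX2 at 5. Despite this near-identity at the start, the transcripts can be told apart over their length: of the 7617 distinct 31-base stretches in CUX2 transcripts, 8 also occur in CUX1 and 0 occur in any other gene, so few reads of one can also match the other. CUX2P1, the CUX2 pseudogene on chromosome 10 (10257169 to 10257466), had 0 counts in all 6 samples.

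The bases just upstream of the first annotated exon were GC-rich in both genes, at 83.7% in CUX1 and 89.0% in CUX2. They are shown because the transcript that carried the CUX2 difference starts beside this stretch, and were taken from RefSeq (GRCh38.p14, plus strand) up to the base before the first exon of GENCODE 29.
CUX2 upstream bases, chr12:111033915-111034023: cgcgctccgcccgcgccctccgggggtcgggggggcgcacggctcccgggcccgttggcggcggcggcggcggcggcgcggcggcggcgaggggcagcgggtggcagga
CUX1 upstream bases, chr7:101815757-101815903: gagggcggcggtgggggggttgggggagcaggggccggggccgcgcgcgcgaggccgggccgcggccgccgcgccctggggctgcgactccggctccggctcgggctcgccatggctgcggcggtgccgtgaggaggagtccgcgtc
In the full 300-base RefSeq window around each of these starts, which also takes in the first exon and its start codon, the pentamer CCAAT on either strand was found 2 times in CUX2 and 1 time in CUX1. The CUX1 match and 1 of the 2 in CUX2 lie in the coding pieces printed above, and the upstream bases printed here hold none. CCAAT occurs in 34.61% of 35116 such human windows. The hexamer ATCGAT, its own reverse complement, was found 1 time in each gene, against 0.76% of all windows, and in both genes it lies in the coding piece printed above. The TATAAA box was found in neither, against 11.53% of all windows. A match of letters is a description and not a binding site.

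CUX2 (ENSG00000111249, chr12:111034024-111350554 on GRCh38, plus strand) was low in control cells and higher in every ARID1A-deficient sample. In bulk RNA, more CUX2 per cell and more cells with CUX2 cannot be told apart. It was counted 89 and 66 times with LacZ, 341 and 272 times with sg1 and 268 and 276 times with sg5. By counting error alone, the 95% exact Poisson interval was 51.0 to 84.0 around the lowest count and 306 to 379 around the highest. In library-scaled units this was 1.69 and 1.31 CPM with LacZ, 6.74 and 6.12 CPM with sg1 and 5.71 and 5.46 CPM with sg5.

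The group means were 1.50 ± 0.269 CPM with LacZ, 6.43 ± 0.440 CPM with sg1 and 5.59 ± 0.178 CPM with sg5 (SD, n = 2 each). The mean level of CUX2 was therefore 4.29-fold that of LacZ with sg1 and 3.73-fold with sg5, and the log2 fold changes fitted by edgeR were 2.10 (SE 0.23) and 1.89 (SE 0.23). With sg1 replicate 1 and sg5 replicate 2 both left out, the same differences were 2.03 (SE 0.27) and 1.93 (SE 0.27). Both contrasts use the same 2 LacZ samples, so they are not independent of each other.

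**Figure D1:**
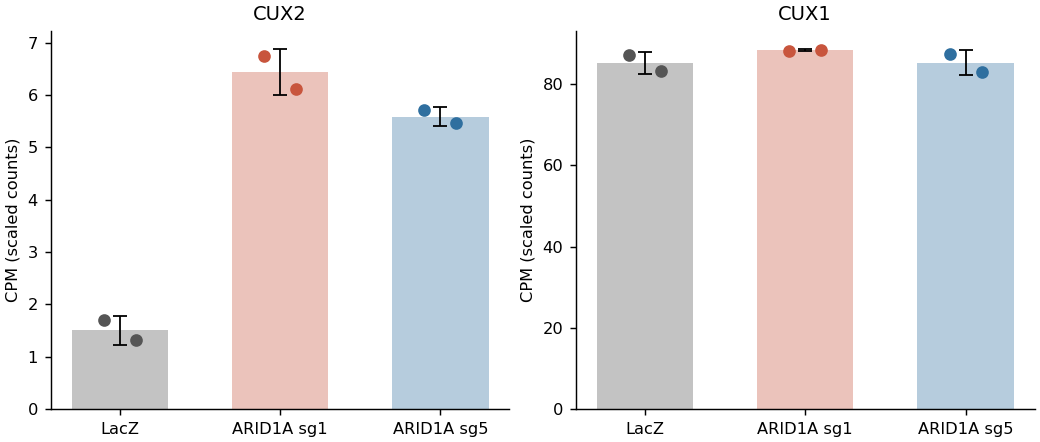
Level of CUX2 (left) and CUX1 (right) in CPM (scaled counts), with 1 point per sample, bars at the mean of 2 samples and error bars of 1 SD. The 4 ARID1A-deficient samples sit between 5.46 and 6.74 CPM for CUX2, above both LacZ samples, while CUX1 stays between 83.1 and 88.5 CPM in all 6.

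CUX2 was 1 of the 2 genes called higher with both guides at a false discovery rate (FDR) under 0.1, the other being RIPOR2, named after its values were seen. That is 0.0108% of genes tested. Since CUX2 was selected on this difference, nothing is read from the call, or from its being kept or lost in other fits. The call was lost without LacZ replicate 1 (2.30 and 2.10 with sg1 and sg5), without LacZ replicate 2 (1.93 and 1.73) and, for sg1, without its own replicate 1 (2.02), though the sign held. With a replicate block it was lost for both guides, again with the sign held. Of all tested genes, 0.0378% were called between sg1 and LacZ, 0.0972% between sg5 and LacZ, and 9.75% had all 4 deficient samples above both LacZ samples as CUX2 did.

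The 2 guides were compared with each other as a test that the choice of CUX2 did not use. CUX2 differed between sg1 and sg5 by 0.20 on the log2 scale (SE 0.22, 95% interval by the normal approximation -0.22 to 0.63), with an edgeR quasi-likelihood adjusted p of 1.00. The sign was positive in all 16 alternatives, which reuse the same samples, with values from 0.06 to 0.27. A difference of up to 0.63 in favor of sg1 lies within the interval, so equality of the guides is not shown. The single gene called between the guides, TEN1, made up 0.0054% of genes tested.

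Per transcript length, CUX2 remained a low-abundance message even in the cells where it was higher. Its level was 0.320 and 0.242 TPM (scaled to the same total after division by transcript length) with LacZ, 1.40 and 1.27 TPM with sg1 and 1.18 and 1.29 TPM with sg5. By mean TPM over the 6 samples (0.951 TPM) it ranked 13953 of 18514 genes, at percentile 24.6. CUX1, at a mean of 24.7 TPM, ranked 5194, at percentile 71.9.

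The balance of the paralogs shifted accordingly. CUX1 exceeded CUX2 by 84.0-fold and 98.9-fold in TPM in the LacZ samples, by 16.9-fold and 19.9-fold with sg1, and by 22.5-fold and 16.9-fold with sg5. As a share of the summed TPM of both genes, CUX2 made up 1.18% and 1.00% with LacZ, 5.59% and 4.78% with sg1 and 4.26% and 5.58% with sg5. CUX1 remained the predominant CUX message in every sample.

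In counts, the rise in CUX2 was carried by the full-length transcript. CUX2-201 spans 22 exons and 1486 codons before the stop, encodes the protein with cut repeats and homeodomain, and starts at the first base of the gene. It was estimated at 89.0 and 66.0 counts with LacZ, 335 and 268 with sg1 and 264 and 265 with sg5. It held 98.1% of CUX2 counts over the 6 samples and 97.2% of the difference in CPM between deficient and control samples, and it was the only transcript to pass 10% of that difference. Its log2 fold change in a fit over 78622 transcripts was 2.08 (SE 0.26) with sg1 and 1.87 (SE 0.26) with sg5.

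CUX2-202, a short model of 8 exons with an internal first exon and no annotated stop, held the remaining 2.75% of the difference in CPM. It had 0 estimated counts for each LacZ sample, 6.21 and 3.82 with sg1 and 3.55 and 10.7 with sg5, where a count of 0 allows up to 3. Because it is 890 bases long against 6844 for CUX2-201, those few counts weigh more in TPM: 0.207 and 0.148 TPM with sg1 and 0.130 and 0.354 TPM with sg5. It thus made up 11.1% to 27.4% of CUX2 TPM in the deficient samples, highest in sg5 replicate 2, against 1.32% to 3.89% of CUX2 counts.

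By TPM, CUX2-201 alone was 0.320 and 0.242 with LacZ, 1.20 and 1.12 with sg1 and 1.05 and 0.940 with sg5, and its groups did not overlap. CUX2-203, a noncoding model of 4 exons inside the gene, had 0 counts in all 6 samples. Gene sums for CUX2 were whole numbers to within 0.01 in every sample, which gives no sign of reads divided between CUX2 and other genes.

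**Figure D2:**
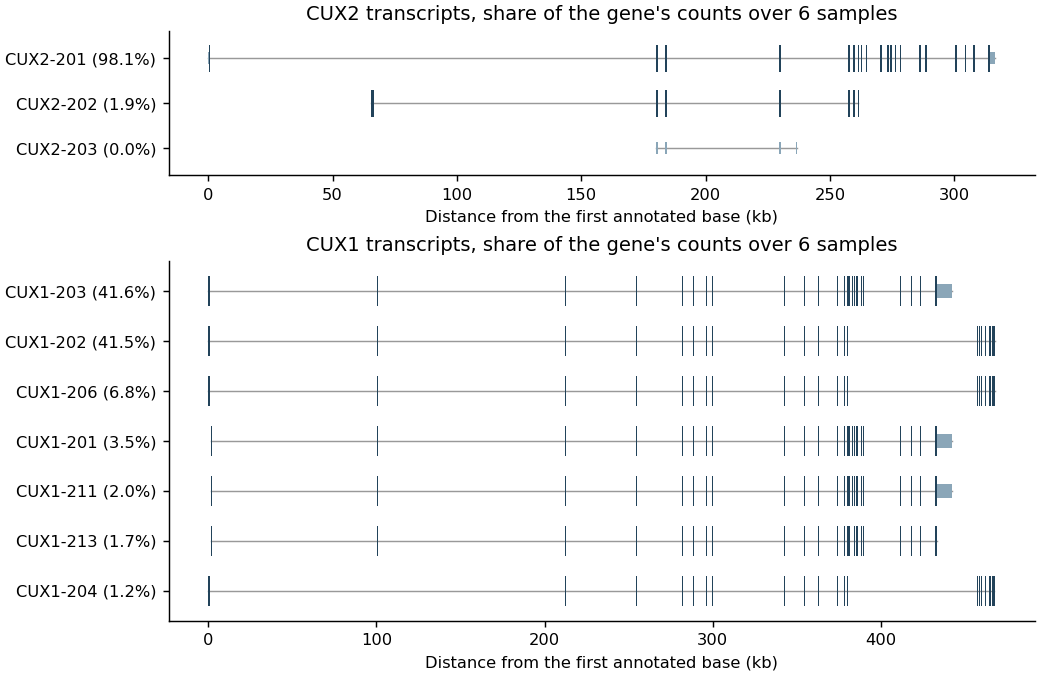
Exon maps of the 3 CUX2 transcripts and of the CUX1 transcripts holding at least 1% of that gene's counts, against distance from the gene's first annotated base in kilobases, with tall dark blocks for coding sequence, low light blocks for noncoding exon and exons under 0.6 kb widened to be visible. CUX2-201, with 98.1% of CUX2 counts, uses the outermost first exon, and the CUX1 transcripts CUX1-203 and CUX1-202 share 5′ exons and part at the 3′ end.

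CUX1 (ENSG00000257923, chr7:101815904-102283958 on GRCh38, plus strand) was at nearly the same level in all 6 samples, with both sg1 samples just above both controls in CPM. It was measured at 87.1 and 83.3 CPM with LacZ, 88.2 and 88.5 CPM with sg1 and 87.4 and 83.1 CPM with sg5. The mean was 85.2 ± 2.70 CPM with LacZ, 88.3 ± 0.232 CPM with sg1 and 85.3 ± 3.09 CPM with sg5 (SD, n = 2 each).

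The log2 fold change of CUX1 was 0.05 (SE 0.10, 95% interval -0.15 to 0.26) with sg1 and 0.00 (SE 0.10, 95% interval -0.20 to 0.21) with sg5. Scaled for length it was 26.9 and 24.0 TPM with LacZ, 23.7 and 25.3 TPM with sg1 and 26.5 and 21.9 TPM with sg5, with the groups overlapping. Between the guides CUX1 differed by 0.05 (SE 0.10, 95% interval -0.15 to 0.26, edgeR adjusted p = 1.00). Differences of the size seen in CUX2 therefore lay outside the intervals for CUX1.

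CUX1 counts were split almost evenly between the homeodomain and the CASP end of the locus. GENCODE 29 lists 23 CUX1 transcripts, of which 20 were quantified, 10 passed the low-count filter and 6 had 0 counts in all samples. CUX1-203, with 24 exons and 1516 codons, is the homeodomain form and held 41.6% of CUX1 counts. CUX1-202, with 23 exons and 678 codons ending at the CASP stop, held 41.5%.

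CUX1-203 was estimated at 1567 and 1716 counts with LacZ, 2154 and 1786 with sg1 and 1425 and 1962 with sg5. CUX1-202 was estimated at 1942 and 1752 counts with LacZ, 1723 and 1602 with sg1 and 1940 and 1617 with sg5. CUX1-203 was above both controls in both sg1 samples and overlapped them with sg5, at log2 fold changes of 0.38 (SE 0.16) and 0.13 (SE 0.16). CUX1-202 overlapped the controls in TPM with either guide, at log2 fold changes of -0.03 (SE 0.17) and 0.05 (SE 0.17). Since CUX1-203 is 13762 bases long and CUX1-202 is 2930, the CASP form was the more abundant molecule, at 13.9 to 18.6 TPM against 2.77 to 3.78 TPM.

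Transcripts with the stop codon of CUX1-203 were summed to ask whether the share of homeodomain-coding RNA differed without ARID1A. They made up 45.0% and 49.6% of CUX1 counts with LacZ, 53.8% and 48.2% with sg1 and 42.4% and 54.1% with sg5. The mean was 47.3% ± 3.19 with LacZ (SD, n = 2) and 49.6% ± 5.51 in the deficient samples (SD, n = 4). The difference of 2.32 points did not exceed the spread (two-sided exact permutation test, p = 0.667), and with 2 samples against 4 the smallest p the test allows is 0.133.

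The 2 highest shares were those of sg1 replicate 1 and sg5 replicate 2, which were also set apart on the principal component above, and the part of that in the shares was not tested. By TPM the homeodomain class was 16.2% and 20.0% of CUX1 with LacZ, 21.9% and 17.4% with sg1 and 13.5% and 20.5% with sg5. The groups overlapped on that scale too.

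**Figure D3:**
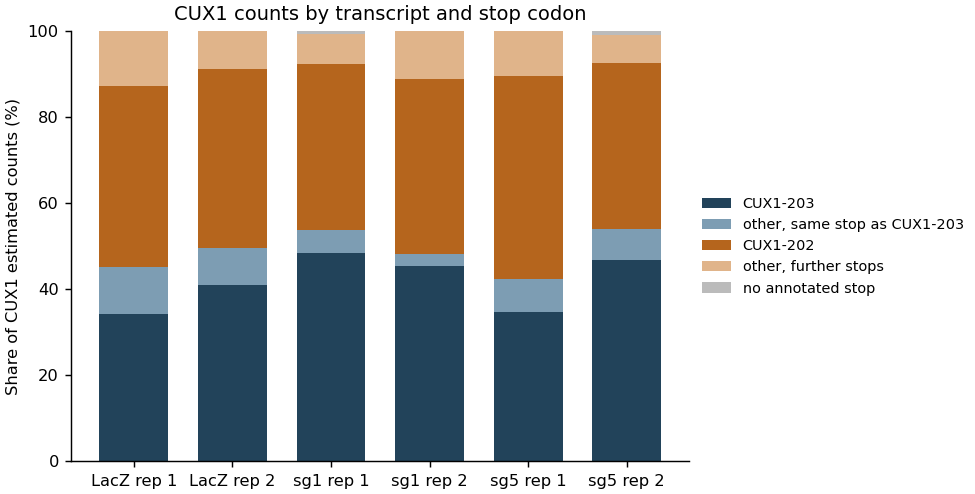
Share of CUX1 estimated counts (percent, vertical axis) in each sample by transcript and stop codon, with blue for the stop of CUX1-203, brown for further stops including that of CUX1-202, and grey for models without an annotated stop. The blue part runs from 42.4% to 54.1%, with the LacZ samples at 45.0% and 49.6% inside that range.

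CUX1-201 differs from CUX1-203 in its first exon, where it uses the downstream start printed above. It was estimated at 322 and 119 counts with LacZ, 0.777 and 0.329 with sg1 and 271 and 170 with sg5, so both sg1 samples were near 0 while both sg5 samples lay within the LacZ range. CUX1-201 has 32 distinct 31-base stretches found in no other CUX1 or CUX2 transcript and CUX1-203 has 0, so the split between them rests on very little sequence. Summed, the pair gave 35.9 and 36.4 CPM with LacZ, 42.6 and 40.2 CPM with sg1 and 36.1 and 42.2 CPM with sg5. Both sg1 samples were above both controls on this sum, and the sg5 samples overlapped them.

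All transcripts with the downstream start together held 10.9% and 8.68% of CUX1 counts with LacZ, 5.47% and 2.82% with sg1 and 7.65% and 7.36% with sg5. These shares were lower in each deficient sample. In TPM they were 5.88% and 7.09% with LacZ, 5.91% and 2.91% with sg1 and 3.02% and 4.91% with sg5, where sg1 replicate 1 overlapped the controls and the other 3 deficient samples were below them. The two-sided exact permutation test gave p = 0.133 in counts, the smallest it allows, and p = 0.267 in TPM. This class was formed after the values were seen, so nothing is read from these p-values. The quantified CUX1-211, which is in it, was 4212 bases long against 13715 in GENCODE 29.

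CUX1-206, a second CASP-type transcript of 676 codons, held 6.84% of CUX1 counts and was estimated at 367 and 222 counts with LacZ, 303 and 311 with sg1 and 313 and 229 with sg5. The remaining quantified CUX1 models each held 2.03% of counts or less, and 4 noncoding or retained-intron models (CUX1-209, CUX1-216, CUX1-217 and CUX1-220) had counts only in sg1 replicate 1 or sg5 replicate 2. These 4 models reached at most 24.2 counts.

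Genes related to CUX1 and CUX2 by descent, by known regulation or as partners were examined in 4 lists of 25 genes, of which 20 passed the filter. EdgeR called 0 of the 20 in either contrast with LacZ, where it called 0.0378% (sg1) and 0.0972% (sg5) of all genes tested. At such shares, 0 calls say little about these genes. An unadjusted p under 0.05 was reached by 2 of the 20 with sg1 and 1 with sg5, beside 769 and 1383 of 18514 genes. DESeq2 called 1 in each, beside 116 and 201 genes. The same shares over all genes stand beside the counts of each list, marker set and neighbourhood below. The median log2 fold change over the 20 was 0.00 with sg1 and -0.08 with sg5, beside 0.00 and -0.01 over all genes tested. All 4 deficient samples lay above both LacZ samples for 2 of them and below for 4, against 9.75% and 10.4% of all genes tested.

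Among the cut-class relatives, which carry cut domains like those of CUX proteins, 3 of 5 passed the filter and 0 were called. SATB1, a chromatin organizer of lymphoid and progenitor cells, was between 83.5 and 96.6 CPM in all samples (log2 fold change -0.04 and -0.06). ONECUT3 was near 1 CPM (-0.09 and -0.18), and ONECUT1 and ONECUT2 had 0 to 3 counts.

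The myeloid genes that CUX1 is known to repress include secondary granule and oxidase genes of maturing granulocytes, and 3 of 6 passed the filter. The largest differences were in the matrix metalloproteinases. MMP9, gelatinase B, was 454 and 360 CPM with LacZ, 283 and 183 CPM with sg1 and 194 and 153 CPM with sg5. Every deficient sample was below both controls, at log2 fold changes of -0.80 (SE 0.22, adjusted p = 0.686) with sg1 and -1.23 (SE 0.22, adjusted p = 0.223) with sg5, neither called by edgeR. DESeq2 gave MMP9 adjusted p of 0.0861 with sg1 and 9.41e-05 with sg5, which is under the threshold in both. In edgeR it was called with sg5 when only the groups compared were fitted (adjusted p = 0.0597) and without either sg1 replicate (0.0387 and 0.0334). It was called with both guides without the low-count filter (8.17e-06 and 2.63e-14) and without sg1 replicate 1 and sg5 replicate 2, at log2 fold changes of -1.16 and -1.07.

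MMP8, neutrophil collagenase, had 21 and 14 counts with LacZ, 14 and 6 with sg1 and 11 and 2 with sg5, at log2 fold changes of -0.70 (SE 0.73) and -1.31 (SE 0.77). CYBB, the gp91phox subunit of the phagocyte oxidase, was 314 and 286 CPM with LacZ, 240 and 241 with sg1 and 292 and 178 with sg5 (-0.32 and -0.35), and the sg5 samples overlapped the controls. The secondary granule genes LTF, LCN2 and CAMP had 4 counts or fewer in every sample, apart from CAMP at 18.5 in sg1 replicate 2.

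The cell cycle and signalling genes linked to CUX1 all passed the filter and 0 of 6 were called. POLA1, the catalytic subunit of DNA polymerase alpha, was 47.1 and 49.3 CPM with LacZ, 57.5 and 53.2 with sg1 and 50.4 and 63.0 with sg5 (0.20 and 0.23, adjusted p = 0.993 and 0.705). CCND1, cyclin D1, was 30.8 and 29.4 CPM with LacZ, 26.0 and 21.6 with sg1 and 27.6 and 29.3 with sg5 (-0.34 and -0.08). Without sg1 replicate 1 and sg5 replicate 2, CCND1 was at -0.48 with sg1. CDC25A, a phosphatase that activates cyclin-dependent kinases, had the largest value with sg5 (0.30, SE 0.19), and its sg1 replicate 2 (59.6 CPM) was below both controls.

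The 8 genes of CUX1 processing and partnership also passed the filter, with 0 called and log2 fold changes between -0.10 and 0.24. RB1, the retinoblastoma protein that partners CUX1 in histone gene control, was 90.3 and 85.8 CPM with LacZ, 100 and 98.3 with sg1 and 102 and 106 with sg5 (0.17 and 0.24, adjusted p = 0.993 and 0.673). CTSL, cathepsin L, which cleaves CUX1 to a shorter nuclear form, stayed at 16.8 to 19.0 CPM. EHMT2, the G9a histone methyltransferase, was at 157 to 179 CPM, with both guides overlapping the controls. HDAC1, a corepressor, was 206 and 188 CPM with LacZ, 205 and 199 with sg1 and 211 and 224 with sg5, where both samples were above the controls (0.04 and 0.14, adjusted p = 0.993 and 0.759).

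Markers of plasmacytoid dendritic cells and neurons, which are known to express CUX2, and of further blood lineages were read beside it. Of 6 promyelocyte or myeloid markers, 5 passed the filter and MPO, myeloperoxidase, had 630217 to 848367 counts per sample, while ELANE, neutrophil elastase, had 1 to 9. CTSG, the granule protease cathepsin G, was 92.9 and 90.7 CPM with LacZ, 59.2 and 70.6 with sg1 and 69.0 and 57.0 with sg5 (-0.50 and -0.54, adjusted p = 0.686 and 0.426). AZU1, the granule protein azurocidin, was 217 and 215 CPM with LacZ, 177 and 180 with sg1 and 160 and 162 with sg5 (-0.28 and -0.43, adjusted p = 0.993 and 0.418). With CD33 these made 3 of the 5 myeloid markers past the filter with every deficient sample below both controls, against 10.4% of all genes tested. ELANE, which did not pass, was also lower, at 9 and 8 counts with LacZ and 1 to 5 in the deficient samples. Of the 5, edgeR called 0, with 2 at an unadjusted p under 0.05 in each contrast. DESeq2 called CTSG and AZU1 with sg5 (adjusted p = 0.0699 and 0.0318). PRTN3 was 459 and 498 CPM with LacZ, 600 and 319 with sg1 and 294 and 452 with sg5 (-0.06 and -0.36). Without sg1 replicate 1 and sg5 replicate 2, PRTN3 was at -0.59 with sg1 and -0.70 with sg5. In that fit CTSG was at -0.38 and -0.41, and AZU1 was at -0.44 with sg5. The part of these markers in the CUX2 difference was not tested.

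The 11 plasmacytoid dendritic cell markers summed to 22.8 and 22.9 CPM with LacZ, 22.7 and 22.1 with sg1 and 23.0 and 19.1 with sg5. Both sg1 samples were thus just below the controls, and sg5 lay on either side of them. NRP1, at 7.97 to 10.4 CPM, made up the largest part of this sum. Of the 11 markers, 5 passed the filter and 0 were called by edgeR or DESeq2. Over all genes tested, edgeR called 0.0378% with sg1 and 0.0972% with sg5. TCF4 was 3.87 and 3.93 CPM with LacZ, 3.65 and 3.06 with sg1 and 2.85 and 2.94 with sg5 (-0.21 and -0.43). The log2 fold changes were -0.05 and 0.46 for SPIB and 0.29 and 0.16 for IL3RA. The defining CLEC4C and LILRA4 had 1 to 7 counts in all samples. Of 6 neuronal markers, SNAP25 and STMN2 had 0 counts throughout and 3 passed the filter at low counts, with 0 called by edgeR or DESeq2 and 0 at an unadjusted p under 0.05. These were RBFOX3 with 3 to 25 counts (log2 fold change -1.39, SE 0.73, and 0.19, SE 0.64), GAD1 with 0 to 12 counts (-0.89, SE 1.15, and -1.40, SE 1.20) and SLC17A7 with 16 to 29 counts (-0.16 and 0.19). The erythroid HBA1 and HBB had 0 counts throughout.

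Of the lymphoid markers, CD79A, a B cell receptor subunit, had all 4 deficient samples above both controls, as CUX2 did. It was 6.21 and 4.62 CPM with LacZ, 10.9 and 9.81 with sg1 and 9.16 and 9.65 with sg5, at log2 fold changes of 0.93 (SE 0.20, adjusted p = 0.410) and 0.80 (SE 0.20, adjusted p = 0.418). DESeq2 called it in both contrasts (adjusted p = 0.00814 and 0.0334), and its part in the CUX2 difference was not tested. MS4A1 had 0 to 3 counts and CD3E had 0 to 2. CD3D, a T cell receptor subunit, was 5.58 and 4.84 CPM with LacZ and 6.41 to 7.24 CPM in the deficient samples (0.37 and 0.39, adjusted p = 0.993 and 0.685).

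The protein-coding genes around each locus were examined to see how far the CUX2 difference extended along the chromosome. Within 500 kb of CUX2 lie 14 such genes, of which 11 passed the filter. In either contrast 0 of the 11 were called by edgeR or DESeq2, where edgeR called 0.0378% (sg1) and 0.0972% (sg5) of all genes tested. An unadjusted p under 0.05 was reached by 1 (sg1) and 2 (sg5) of the 11, beside 769 and 1383 of 18514 genes. The log2 fold changes of the 11 ran from -0.62 to 0.39 with sg1 and from -0.59 to 0.42 with sg5, against 2.10 and 1.89 for CUX2. The largest was that of PHETA1, 10.1 kb beyond the 3′ end, an endosomal protein that binds the lipid phosphatase OCRL, at 2.61 and 2.85 CPM with LacZ, 2.67 and 0.886 with sg1 and 1.23 and 2.40 with sg5. Without sg1 replicate 1 and sg5 replicate 2, the log2 fold change of PHETA1 was -1.64 with sg1 and -1.15 with sg5, and edgeR called both (adjusted p = 0.00162 and 0.0432), with each lone sample assumed to vary like LacZ.

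HVCN1, the voltage-gated proton channel, which lies 329 kb upstream, had all 4 deficient samples above both controls. It was 71.2 and 52.3 CPM with LacZ, 88.1 and 73.1 with sg1 and 87.6 and 77.8 with sg5 (0.39 and 0.42, adjusted p = 0.993 and 0.661), and with sg5 it was called without the same libraries (0.50, edgeR adjusted p = 0.00203). SH2B3, the adaptor LNK that dampens cytokine signalling, lies 55.4 kb beyond the 3′ end and was 206 and 213 CPM with LacZ, 180 and 186 with sg1 and 181 and 137 with sg5 (-0.19 and -0.40, adjusted p = 0.993 and 0.634). In all, 4 of the 11 had every deficient sample above both controls and 1 had every one below, against 9.75% and 10.4% of all genes tested.

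Within 500 kb of CUX1 lie 24 protein-coding genes, of which 19 passed the filter. In either contrast edgeR called 0 of the 19, beside 0.0378% (sg1) and 0.0972% (sg5) of all genes tested. An unadjusted p under 0.05 was reached by 1 (sg1) and 2 (sg5) of the 19, beside 769 and 1383 of 18514 genes. SH2B2, an adaptor of the same family as SH2B3, begins 1.13 kb beyond the 3′ end of CUX1. It was counted 306 and 295 times with LacZ, 152 and 165 times with sg1 and 139 and 139 times with sg5, with the groups well apart. Its log2 fold change was -0.80 (SE 0.22, adjusted p = 0.706) with sg1 and -1.03 (SE 0.22, adjusted p = 0.333) with sg5, where DESeq2 called it (adjusted p = 0.00891). The neighbours include near-identical copies (RASA4 with RASA4B, and the POLR2J and SPDYE2 families), whose counts are uncertain, among them AC093668.2 with 0 counts in sg1 replicate 1 and 212 in sg1 replicate 2 (0.81, SE 1.73, and 1.05, SE 1.72). Every deficient sample was above both controls for 2 of the 19 and below for 4, against the same 9.75% and 10.4%.

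**Figure D4:**
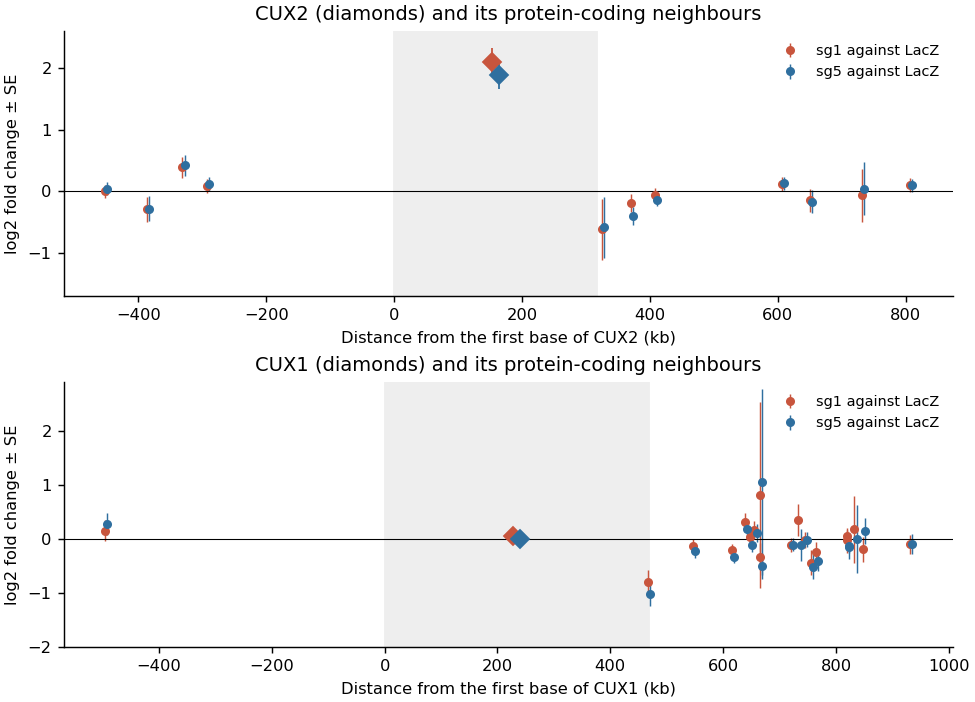
Log2 fold change against LacZ (vertical axis, ± SE) of CUX2 and CUX1 (diamonds) and of the protein-coding genes within 500 kb of either gene that passed the filter (circles), against distance from the first base of CUX2 or CUX1 in kilobases, with the gene itself shaded. CUX2 stands at 2.10 and 1.89 while its 11 neighbours lie between -0.62 and 0.42, and SH2B2, next to CUX1, lies at -0.80 and -1.03.

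Finally, the genes nearest to CUX2 in profile were listed by the root mean square difference of log2 CPM over the 6 samples, each gene centred on its own mean. The 5 nearest were EPHB3 (0.26), AC006557.3 (0.28), BMP10 (0.28), AL512408.1 (0.29) and ACY3 (0.30), where a gene with no variation would be at 0.94 and CUX1 was at 0.93. They were taken for their likeness to CUX2, so their difference from LacZ carries no test.

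EPHB3, a receptor tyrosine kinase for ephrin-B ligands, was 0.589 and 0.575 CPM with LacZ, 1.78 and 1.91 with sg1 and 1.53 and 1.74 with sg5. ACY3, an aminoacylase, was 0.664 and 0.654 CPM with LacZ, 2.33 and 1.64 with sg1 and 2.13 and 1.58 with sg5. Both were low genes, like CUX2, with every deficient sample above the controls.

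BMP10, a ligand of the TGF-β family known from the heart, was counted 2 and 3 times with LacZ and 10 to 16 times in the deficient samples. AC006557.3, an antisense transcript on chromosome 18, was estimated at 9.24 and 3.81 counts with LacZ and 19.6 to 21.8 counts in the deficient samples. At such counts, sampling error alone is large.

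AL512408.1 is an antisense gene at chr1:26692132-26694131, overlapping the 5′ end of ARID1A, which begins at 26693236. It was counted 13 and 16 times with LacZ, 44 and 51 times with sg1 and 47 and 47 times with sg5, so it was higher in all 4 samples with a guide against ARID1A. Whether counting used strand is not given in the sources used here, so reads of ARID1A and of its antisense partner cannot be told apart where they overlap.

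**Figure D5:**
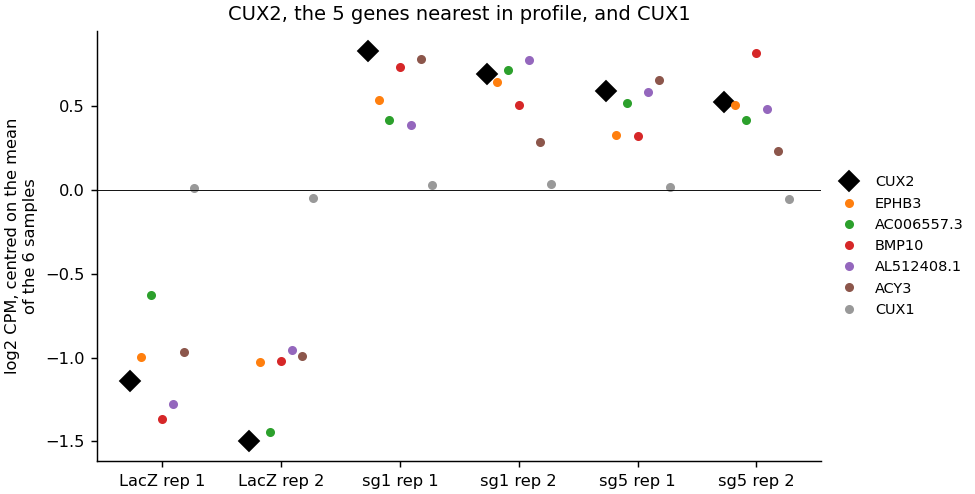
Log2 CPM of CUX2 (diamonds), the 5 genes nearest to it in profile and CUX1 (circles) in each of the 6 samples, each gene centred on its mean over the samples. The 2 LacZ samples lie below 0 and the 4 deficient samples above it for CUX2 and the 5 genes, and CUX1 stays near 0 throughout.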

How the data were processed

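RNA from 6 NB4 samples was sequenced from TruSeq libraries. Per the labels, the authors used kallisto, and the notes name hg19 and DESeq2; the deposited tables hold estimated counts and TPM for 196354 transcripts, with the transcript set not given in the sources used here. Of these, 92.6% matched GENCODE 29 (GRCh38) by identifier, and 95.4% to 95.5% of counts were summed to genes, so coordinates are those of GENCODE and not of the authors' build. Deposited estimated counts were rounded and tested with edgeR 4.0.16 in R 4.3.3 (TMM, filterByExpr with a minimum count of 10, robust quasi-likelihood F-test, all 6 samples, Benjamini-Hochberg over all genes, FDR 0.1 as in the study). DESeq2 1.42.0 was an alternative, as were other filters, scalings, pseudocounts on log2(TPM), a replicate block and leaving out samples. CPM is the estimated count scaled to 1000000 per TMM-adjusted library. The biological coefficient of variation was 16.6%. Columns of transcript length were used to match models, and effective lengths were used to set the length offset of 1 alternative.

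Members and gene lists were chosen with earlier results of these data known. Genes named are list members, the larger changes of each list given with their values, and the 5 nearest profiles; some list members are not reported here. Replicates of a group differed beyond sampling noise (chi-square per degree of freedom 14.9 to 62.6). The scripts were tested on simulated data. The 95% Poisson intervals cover counting error only. The 95% intervals on log2 fold changes use the normal approximation, so with so few samples they are too narrow.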

Additional observations from a re-analysis of the deposited data

Results flagged for a closer look

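Of 13 values tested in the 4 ARID1A-deficient samples, 1 had a sample far from the others, and chance would do this in about 1 group of 20. CUX1-207, a short CUX1 model of 5 exons, was at 0.788 TPM in sg1 replicate 1 and at 0.439, 0.419 and 0.390 TPM in the other deficient samples, so the gap took up 0.877 of the range. It rests on 10.8 counts against 5.22 to 5.43, and LacZ replicate 1 was as high, at 0.823 TPM.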

How the results depend on the processing

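CUX2 was higher than LacZ under all 16 alternatives. Its log2 fold change was 2.28 (sg1) and 2.19 (sg5) with a length offset, 1.92 (sg1) on log2(TPM + 0.1), and 0.87 and 0.80 on log2(TPM + 1), where the pseudocount is of the size of the level. Leaving out 1 sample at a time gave 1.93 to 2.30 in sg1 and 1.73 to 2.10 in sg5.

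CUX1 against LacZ was -0.0182 in sg1 with a length offset, -0.0534 and -0.0516 on the same TPM scales in sg1, and -0.0764 and -0.0736 in sg5, with 0.0190 to 0.0849 (sg1) and -0.0243 to 0.0436 (sg5) when 1 sample was left out. CUX1 and CUX2 between the guides were not called under any alternative. The share with the stop of CUX1-203 differed by 0.06 to 4.73 points when 1 sample was left out.

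Replicate numbers did not pair the samples: deviations of same-numbered samples correlated at 0.07 (LacZ and sg1), 0.01 (LacZ and sg5) and -0.21 (sg1 and sg5). With a replicate block CUX2 was at 2.10 and 1.90 and was not called, and 1, 1 and 0 genes were called in sg1, sg5 and between the guides.

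Counts of called genes depended on the method. In the same order, DESeq2 called 116, 201 and 5, no low-count filter gave 345, 632 and 86, and fitting only the groups compared gave 18, 29 and 0. Leaving out 1 sample at a time gave 1 to 33, 0 to 78 and 0 to 8, and leaving out both libraries that stood apart, chosen after seeing the data, gave 424, 787 and 215, with each lone sample assumed to vary like LacZ. Between the guides a length offset gave 2 and FDR 0.05 gave 0. Beside these counts of 0, genes at an unadjusted p under 0.05 numbered 206 (block), 166 (groups compared), 612 (sg5 without LacZ replicate 2), 539 (guides without sg1 replicate 1) and 256 (FDR 0.05). SH2B2 in sg5 was also called without the low-count filter and without both libraries. The cause of these differences was not tested. CUX2-202 and other models under 20 counts are limited by depth.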
